A study of Caenorhabditis elegans with 6 samples.

Results

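The nas genes of Caenorhabditis elegans encode astacins, a family of secreted zinc metalloproteases. They were taken as every row with counts in the authors' deposited table whose gene name was nas- followed by a number, which gave 37 of 22416 genes. They were chosen by the name and by having a count entry in the table, and the family was picked for description with earlier results of these data known. Of the 37 genes, 36 are annotated as protein coding and nas-40 as a pseudogene. The comparison is of whole CL2006 worms fed bacteria with the empty RNAi vector (EV control, 3 libraries) with worms fed nol-56 RNAi (3 libraries). Worms of both groups carry a transgene in which the muscle promoter of unc-54 drives Abeta, the amyloid peptide, and grew at 20 °C on EV bacteria up to the last larval stage. They then received one of the RNAi treatments until collection on day 6 of adulthood, and were moved daily to leave progeny behind. Each library came from a pool of whole worms, and no label says that pools came from separate cultures, so that p-values measure the spread between these libraries, which may be technical.

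Astacins are made with a signal for secretion and an inhibitory propeptide, and their catalytic domain holds a zinc ion bound by histidines. Digestion, the shedding of the cuticle at each molt, the trimming of collagens and the escape of the embryo from its eggshell are among the known uses of these enzymes in nematodes. The worm family is commonly sorted into 6 classes by the domains that follow the catalytic one. Class I (nas-1 to nas-5) has the catalytic domain alone. Class II (nas-6 to nas-15) adds ShK-type cysteine-rich domains, class III (nas-16 to nas-30) EGF-like and CUB domains, and class IV (nas-31 and nas-32) all of these. Class V (nas-33 to nas-38) carries thrombospondin type repeats beside EGF-like and CUB domains, and class VI (nas-39) several CUB and EGF-like domains, as the vertebrate enzyme BMP-1 and fly tolloid do. By these ranges nas-34 is listed in the table as hch-1, nas-26 as toh-1, and nas-35 is dpy-31. These 3 genes lay outside the name rule and are described separately.

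Total counts were 21138955 to 34841215 per library. The targeted gene nol-56 had 5878, 9029 and 8288 counts in EV control libraries and 518, 442 and 339 in nol-56 RNAi libraries, so that it followed the labels in each. Every one of 12 marker lists for the tissues of a whole worm was detected, with no listed gene at 0 counts in all libraries. Germline markers fell in 16 of 16 genes tested, from a summed 11269 to 12008 CPM in EV control to 4423 to 4546 CPM in nol-56 RNAi. Levels are in CPM, counts scaled to a common library size with TMM factors. In whole-worm RNA, fewer cells of a type and less RNA per cell cannot be told apart.

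Most of the nas genes with enough reads to test were higher in nol-56 RNAi worms. Of these 26 genes, 20 rose, none fell and 6 did not pass the threshold (edgeR quasi-likelihood test, Benjamini-Hochberg adjusted p under 0.05 over all 14677 genes tested). At an unadjusted p under 0.05 none was lower either, and DESeq2 and limma-voom called none lower. The share called higher was 76.9%, against 47.2% of all genes tested, and the share called lower was 0 of 26 against 40.8%. The balance over all genes depends on the method: of all calls 53.6% were higher, but 49.6% with RLE factors, 46.9% with DESeq2 and 62.4% with upper-quartile factors. A rise of at least 2-fold was called in 11 of 26 nas genes (42.3%) and in 24.8% of all genes. The share of 2-fold rises was not computed among genes of like level. The 20 that rose were also the count of nas genes in which every nol-56 RNAi library lay above every EV control library (47.2% of all genes tested, with 40.9% in the other direction), and the groups overlapped in the other 6.

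**Figure D1:**
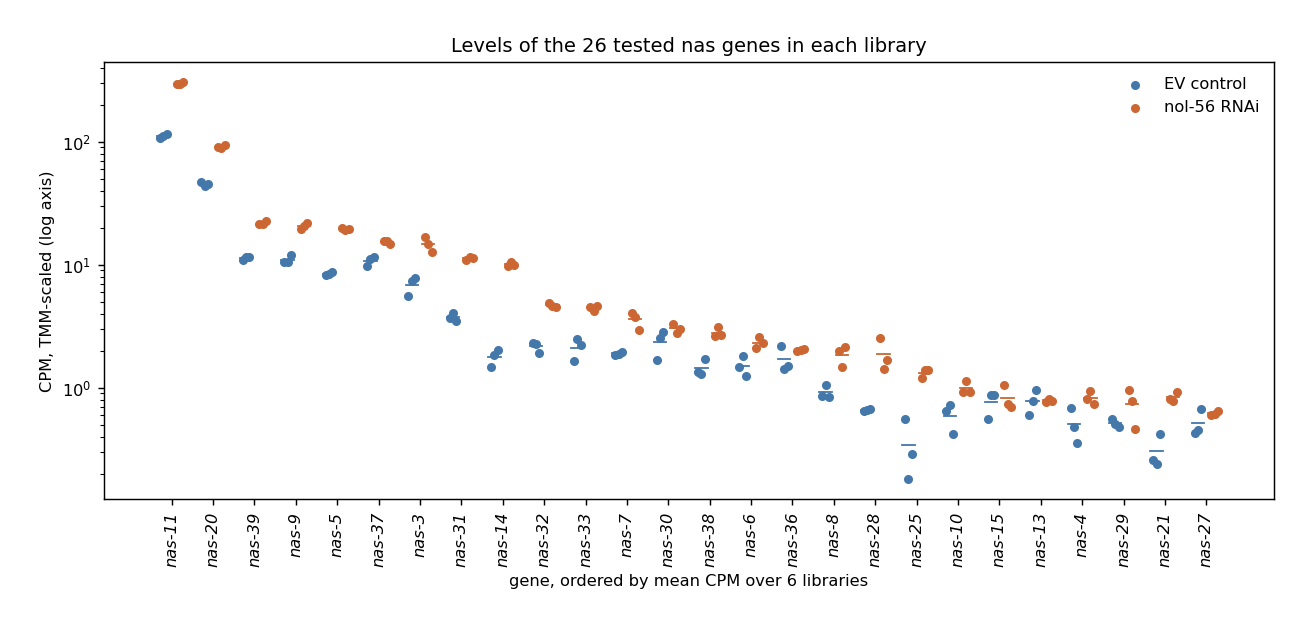
TMM-scaled CPM (log axis) of the 26 tested nas genes in each of 6 libraries, blue for EV control and orange for nol-56 RNAi, with a bar at each group mean of 3 libraries. nas-11 and nas-20 stand above all others in both groups, and the 2 groups overlap in nas-36, nas-15, nas-13, nas-29, nas-27 and nas-30.

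The median log2 fold change of the tested nas genes was 0.95, in a range of −0.01 to 2.48, beside 0.16 for all genes tested. The median of all genes depends on the scaling, moving by −0.14 with RLE and by 0.25 with upper-quartile factors, and a change of scaling moves the nas genes about as much. The median nas gene lay 0.79 above that of all genes, 0.53 above it with no filter on low counts and with DESeq2, and 0.92 above it among genes over 1 CPM in at least 3 libraries. In all, 24 of 26 tested nas genes were above the median of all genes, and 12 were above its upper quartile of 0.99. Level matters for this reading. Among the 6186 genes of 1 to 20 mean CPM, 65.6% were called higher with a median of 0.76, and of the 16 nas genes in that band 14 were called higher with a median of 0.98. Under 1 mean CPM the nas genes did not stand above the rest: 4 of 8 were called higher, with a median of 0.64, against 50.3% of genes, with a median of 0.67. Filtering also favours genes that are high in one group: 5 nas genes (nas-4, nas-10, nas-21, nas-25 and nas-27) passed the filter's level of 0.417 CPM in all 3 nol-56 RNAi libraries but not in all 3 EV control libraries, and none the other way round. Of the 21 that passed it in all libraries, 16 rose.

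**Figure D2:**
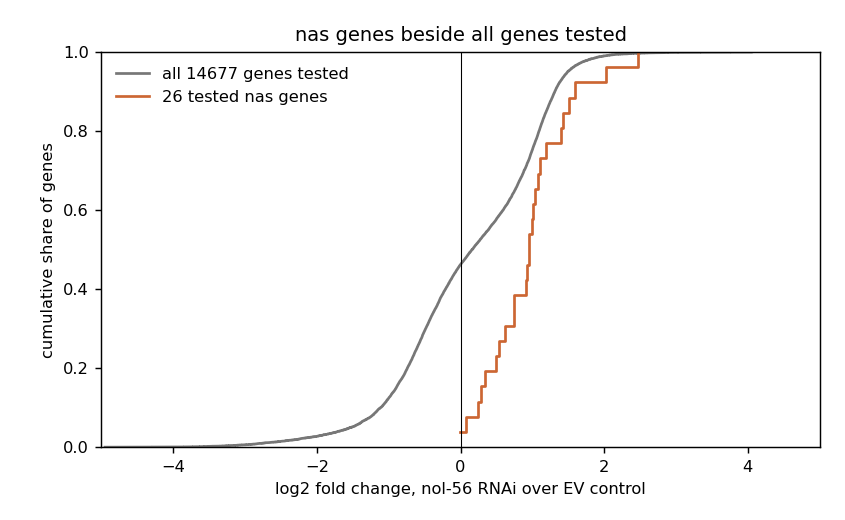
Cumulative share of genes (vertical axis) at or below each log2 fold change of nol-56 RNAi over EV control (horizontal axis), for all 14677 genes tested in grey and the 26 tested nas genes in orange. The nas curve starts at −0.01 and has its median at 0.95, to the right of the median of all genes at 0.16.

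The family's summed level was higher in every nol-56 RNAi library, with nas-11 as its largest single part. All 37 nas genes together stood at 225, 231 and 239 CPM in EV control libraries 1 to 3 and at 534, 530.4 and 545 CPM in nol-56 RNAi libraries 1 to 3, a ratio of means of 2.31. The groups did not overlap (exact permutation test, two-sided p = 0.1, the smallest that 3 against 3 libraries can give). Without nas-11 the sum was 120 ± 2.65 CPM in EV control against 239 ± 2.65 CPM in nol-56 RNAi (mean ± SD, n = 3), a ratio of 1.999. Without nas-11 and nas-20 it was 74.2 ± 4.005 and 148 ± 1.95 CPM, a ratio of 1.99. nas-11 held 48.4 ± 0.397% of the family's CPM in EV control against 55.4 ± 0.543% in nol-56 RNAi, and nas-20 held 19.6 ± 1.29% and 17.01 ± 0.321%. The whole family was a small part of the transcriptome, at 0.0224 ± 0.000903% of all counts in EV control against 0.0554 ± 0.000529% in nol-56 RNAi.

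**Figure D3:**
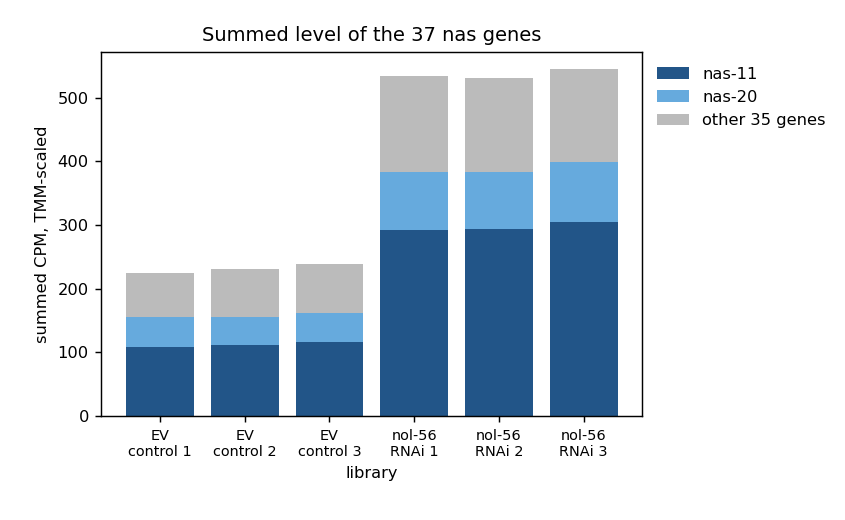
Summed TMM-scaled CPM of the 37 nas genes in each library, stacked as nas-11, nas-20 and the other 35. Every nol-56 RNAi bar, at 530.4 to 545 CPM, is above every EV control bar, at 225 to 239 CPM, and nas-11 makes up the largest block of each.

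In level per kilobase of exon, which allows genes to be compared with each other, the order was steep at the top and flat below. In EV control worms nas-11 stood at 63.1 ± 2.35 CPM per kb, nas-20 at 37.9 ± 1.65 and nas-5 at 7.28 ± 0.179, and their ranges did not overlap. nas-3 (6.14 ± 1.07) and nas-9 (6.09 ± 0.450) could not be separated from each other. nas-37 (4.25 ± 0.352), nas-39 (3.24 ± 0.0922), nas-31 (1.72 ± 0.121) and nas-7 (1.41 ± 0.0376) followed, each apart from the next, and nas-7 apart from nas-32. From nas-32 (1.07 ± 0.109 CPM per kb) down to nas-4 (0.218 ± 0.0734) the ranges of all neighbours overlapped. In nol-56 RNAi worms the first 5 genes kept these places, and nas-14 went from the 13th place to the 9th.

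The 3 tested genes of class I, which have the catalytic domain alone, all rose. nas-5 (chromosome I, 9886189 to 9888224 in WBcel235) had 8.32, 8.38 and 8.71 CPM in EV control libraries 1 to 3 and 19.7, 19.03 and 19.4 CPM in nol-56 RNAi libraries 1 to 3. The groups were far apart, with a 2.29-fold rise (log2 fold change 1.19, SE 0.07, edgeR adjusted p = 7.94e-13). nas-3 (chromosome V, 9478163 to 9479601) had 5.52, 7.33 and 7.78 CPM in EV control against 16.7, 14.7 and 12.7 CPM in nol-56 RNAi libraries. It varied more within both groups than nas-5 did, but its groups did not overlap, and it rose 2.12-fold (1.08, SE 0.11, edgeR adjusted p = 6.04e-09). nas-4 was near the limit of detection, with 16, 16 and 11 counts in EV control against 20, 23 and 16 in nol-56 RNAi libraries (log2 fold change 0.75, edgeR adjusted p = 0.0222). It reached the filter's level in every nol-56 RNAi library but not in every EV control library. Its call was lost with RLE factors (adjusted p = 0.0576), with DESeq2 (0.250) and in fits that left out control library 2 (0.0620), control library 3 (0.117) or treated library 2 (0.0914). nas-4 also shares 437 exon bases with C05D11.5 on the same strand, so that its reads are partly ambiguous.

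Class II held both the most abundant nas gene and the one with the largest rise. nas-11 (chromosome X, 6713577 to 6716357) had 108, 112 and 116 CPM in EV control against 293, 295 and 305 CPM in nol-56 RNAi libraries. The groups were far apart, and the gene rose 2.65-fold (log2 fold change 1.41, SE 0.04, edgeR adjusted p = 6.35e-18). Its last exon shares 163 bases with the convergent gene smf-2 on the other strand, which had 3 to 7 counts per library. nas-14 (chromosome IV, 13170541 to 13174144) had 1.47, 1.86 and 2.02 CPM in EV control against 9.81, 10.5 and 9.93 CPM in nol-56 RNAi libraries. This was the largest rise in the family, at 5.57-fold (2.48, SE 0.12, edgeR adjusted p = 2.31e-14). Per kilobase of exon its treated libraries reached the range of nas-31. nas-9 (chromosome V, 4836027 to 4840013) had 10.5, 10.5 and 11.9 CPM in EV control against 19.6, 20.6 and 21.7 CPM in nol-56 RNAi libraries, a 1.87-fold rise (0.91, SE 0.07, edgeR adjusted p = 1.55e-10).

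The pharyngeal members of class II described here, nas-6 and nas-7, both rose. The difference between their rises was not tested. nas-6, which is needed to form the grinder, the toothed cuticle of the worm's pharynx, had 1.47, 1.80 and 1.248 CPM in EV control against 2.09, 2.56 and 2.31 CPM in nol-56 RNAi libraries. Its groups were close but did not overlap, and it rose 1.53-fold (log2 fold change 0.62, SE 0.18, edgeR adjusted p = 0.00385), a call lost with DESeq2 (adjusted p = 0.108). nas-7, a pharyngeal astacin, had 1.85, 1.89 and 1.95 CPM in EV control against 4.06, 3.74 and 2.96 CPM in nol-56 RNAi libraries, with the third treated library lowest. It rose 1.90-fold (0.92, SE 0.16, edgeR adjusted p = 1.44e-05). In the same libraries the 8 pharyngeal muscle markers went from a summed 458 to 502 CPM in EV control to 1054 to 1090 CPM in nol-56 RNAi, with 7 of 8 higher and a median of 1.26. Most of this sum was mlc-1 and mlc-2, at means of 147 and 223 CPM in EV control against 288 and 494 CPM in nol-56 RNAi. The 8 pharyngeal gland markers went from 82.1 to 87.1 CPM to 205 to 234 CPM, with 5 of 7 tested higher and a median of 0.86. Most of the gland sum was dod-6, which went from 73.2 ± 1.52 to 200 ± 14.6 CPM. The part of these tissues in the change of nas-6 and nas-7 was not tested.

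Among the remaining class II genes nas-8 rose (log2 fold change 1.00). nas-10 was also called (0.75, edgeR adjusted p = 0.0137), from 15, 24 and 13 counts in EV control against 23, 28 and 20 in nol-56 RNAi libraries. However, it reached the filter's level in every nol-56 RNAi library but not in every EV control library. The nas-10 call was lost with DESeq2 (adjusted p = 0.189) and in fits that left out control library 3 (0.0913) or treated library 2 (0.0697). nas-13 (−0.01, SE 0.26) and nas-15 (0.08, SE 0.27) did not pass the threshold in any alternative. Their sign changed with the scaling, nas-13 turning positive with upper-quartile factors (0.23) and nas-15 negative with RLE factors (−0.05).

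Of the 14 class III genes 4 rose, 3 did not pass the threshold and 7 had too few reads to test. nas-20 (chromosome V, 11470925 to 11472309) had 47.5, 43.6 and 45.0 CPM in EV control against 91.2, 88.3 and 94.1 CPM in nol-56 RNAi libraries. The groups were far apart and the gene rose 2.02-fold (log2 fold change 1.01, SE 0.05, edgeR adjusted p = 5.82e-15). Its neighbour nas-21 starts 254 bases away on the opposite strand and was far weaker, at 0.305 ± 0.0970 CPM in EV control. It was also called higher, at 0.834 ± 0.0800 CPM in nol-56 RNAi (1.42, SE 0.32, edgeR adjusted p = 0.000273). However, nas-21 reached the filter's level in every nol-56 RNAi library but not in every EV control library. nas-22, the next gene along, had 4, 4 and 12 counts in EV control against 4, 4 and 2 in nol-56 RNAi libraries and was not tested. These 3 genes lie within 7.08 kb.

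nas-28 (chromosome III, 6180962 to 6183218) had 0.646, 0.658 and 0.672 CPM in EV control against 2.53, 1.42 and 1.66 CPM in nol-56 RNAi libraries. The first treated library was the highest, all 3 were above the controls, and the gene rose 2.84-fold (log2 fold change 1.505, SE 0.25, edgeR adjusted p = 8.53e-06). nas-25 had 13, 6 and 9 counts in EV control against 30, 34 and 30 in nol-56 RNAi libraries (2.03, SE 0.31, edgeR adjusted p = 2.92e-06). It too reached the filter's level in every nol-56 RNAi library but not in every EV control library. nas-27 (0.24), nas-29 (0.53) and nas-30 (0.33) did not pass the threshold. nas-30 passed as higher with upper-quartile factors (adjusted p = 0.00516), library totals (0.0302) and without EV control library 3 (0.0205), and nas-29 with upper-quartile factors (0.0226) and without nol-56 RNAi library 3 (0.0285).

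**Figure D4:**
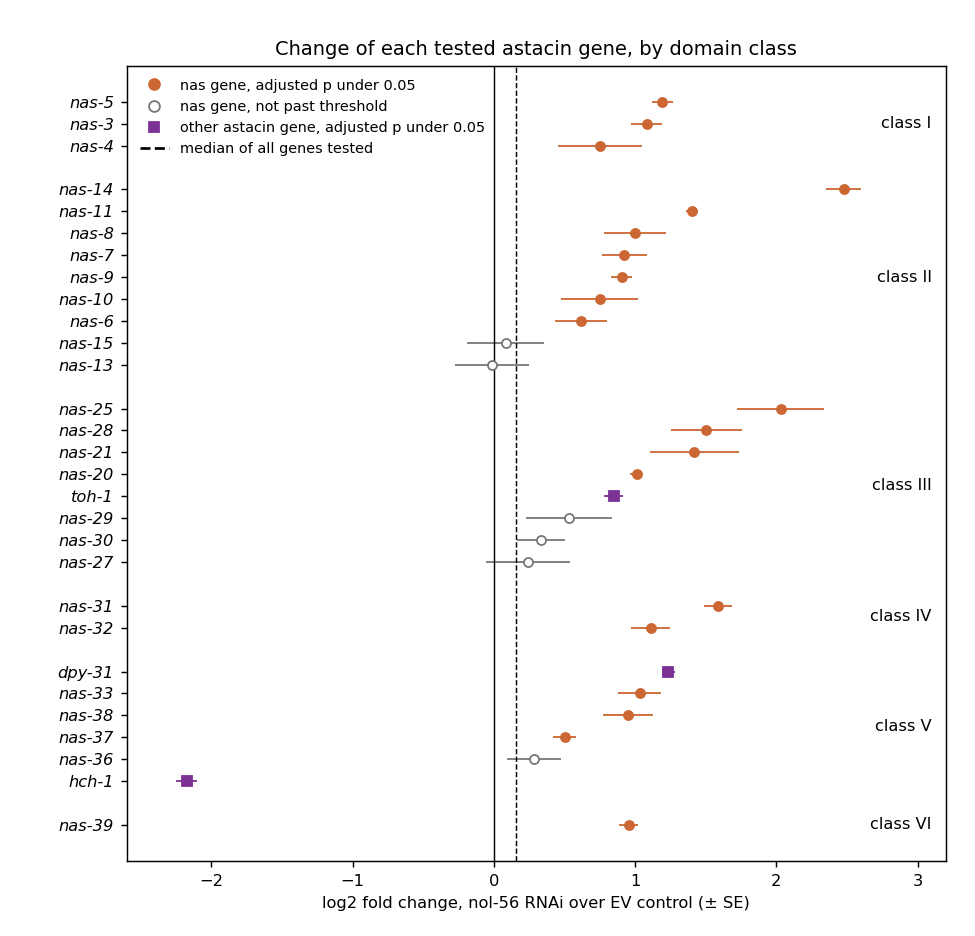
Log2 fold change (± SE) of nol-56 RNAi over EV control for the 26 tested nas genes (circles) and 3 astacin genes with other names (squares), by domain class. Open symbols did not pass the threshold, and the dashed line marks the median of all genes tested at 0.16. All filled nas symbols are to its right, nas-14 is farthest right at 2.48, and hch-1 stands alone on the left at −2.18.

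The 2 class IV genes both rose. nas-31 (chromosome V, 10918857 to 10921847) had 3.71, 4.01 and 3.49 CPM in EV control against 10.9, 11.6 and 11.3 CPM in nol-56 RNAi libraries. With tight groups it showed a 3.004-fold rise, the largest among nas genes with more than 3 CPM in EV control (log2 fold change 1.59, SE 0.10, edgeR adjusted p = 1.28e-12). nas-32 went from 2.17 ± 0.221 to 4.68 ± 0.201 CPM (1.11).

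Class V contains the molting enzymes, and these had the smallest changes of its members. nas-37, which digests the old cuticle so that the larva can leave it, lies on chromosome X (9944844 to 9949063). It had 9.78, 11.2 and 11.5 CPM in EV control against 15.6, 15.7 and 14.7 CPM in nol-56 RNAi libraries, and rose 1.41-fold, the smallest rise called in the family (log2 fold change 0.50, SE 0.08, edgeR adjusted p = 4.07e-06). nas-36, which also acts in ecdysis, had 2.20, 1.41 and 1.504 CPM in EV control against 1.97, 2.03 and 2.08 CPM in nol-56 RNAi libraries. Its first control library was above all treated ones, and it did not pass the threshold (0.29, SE 0.19, edgeR adjusted p = 0.164). Without that library it passed as higher (0.47, adjusted p = 0.0308), as it did with upper-quartile factors (0.53, adjusted p = 0.0149).

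nas-38, which affects sleep-like quiescence around the molt, had 1.34, 1.29 and 1.70 CPM in EV control against 2.61, 3.09 and 2.68 CPM in nol-56 RNAi libraries. It rose 1.93-fold with groups that did not overlap (log2 fold change 0.95, SE 0.18, edgeR adjusted p = 3.21e-05). nas-33 went from 2.12 ± 0.436 to 4.43 ± 0.215 CPM (1.03). The epidermis and seam markers, from tissues that make the cuticle, went in both directions in these libraries, with 5 of 12 tested higher, 4 lower and a median of −0.12. Their summed level went from 295 to 346 CPM in EV control to 524 to 549 CPM in nol-56 RNAi. Most of this rise came from rol-6, which alone went from 169 ± 5.49 to 364 ± 15.9 CPM. Whether all rol-6 reads in these transgenic worms came from the gene's own locus was not tested. The part of these markers in the changes of nas-36, nas-37, nas-38 and nas-33 was not tested.

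nas-39, the class VI gene, belongs to the BMP-1 and tolloid type, whose vertebrate and fly members cleave procollagens and antagonists of TGF-β family ligands. It lies on chromosome X (16456927 to 16471333), has the longest exon sequence of the tested nas genes at 3480 bases, and shares 276 of them with F38E9.1 on the same strand. nas-39 had 10.9, 11.5 and 11.5 CPM in EV control against 21.4, 21.6 and 22.8 CPM in nol-56 RNAi libraries. The groups were far apart, and the gene rose 1.94-fold (log2 fold change 0.95, SE 0.07, edgeR adjusted p = 1.24e-11).

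The 11 untested genes had at most 12 counts in any library. nas-2 and nas-40 had no count in any library. nas-2 has a second annotated copy, listed in the table as Y19D10A.6 and also at 0. Both have 819 exon bases, and whether reads matching both copies were left out of the counts was not tested. nas-16, nas-17, nas-18 and nas-19, neighbours within 10.4 kb of chromosome V, had 0 to 2 counts per library. nas-1 had 6, 3 and 6 counts in EV control against 2, 1 and 1 in nol-56 RNAi libraries, lower in each treated library. With no filter on low counts it did not pass the threshold (edgeR adjusted p = 0.0938). nas-23, with 3, 9 and 4 counts in EV control against 3, 3 and 2, was likewise lower in CPM in each treated library. nas-12 and nas-24 had 1 to 11 counts per library. With no filter, 8 of the 9 untested genes with counts had a log2 fold change below 0, and none of the 9 passed the threshold. Exons of 12 nas genes overlap those of another counted gene, 2 on the same strand and 10 on the other, by 2 to 437 bases. The sources used here do not say whether counting used the strand.

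By position, 6 of 6 tested nas genes on chromosome V rose, 6 of 8 on chromosome X, 3 of 3 on chromosome IV, 2 of 2 on chromosome III, 2 of 4 on chromosome II and 1 of 3 on chromosome I. Each of the 6 chromosomes thus held at least 1 nas gene called higher. The share of all genes called higher was 47.2% over the whole genome and was not computed by chromosome.

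The astacins with other names did not all go the same way. hch-1, the hatching enzyme that helps the embryo dissolve its eggshell (chromosome X, 14696411 to 14699977), had 36.9, 43.5 and 40.1 CPM in EV control against 9.33, 8.37 and 9.06 CPM in nol-56 RNAi libraries. It fell by 2.18 on the log2 scale (SE 0.07, edgeR adjusted p = 4.31e-17), with groups far apart. In these libraries 5 of 6 tested early embryo markers fell and 1 rose, with a median of −2.66 and a summed level of 60.04 to 69.6 CPM in EV control against 17.6 to 20.4 CPM in nol-56 RNAi. Germline markers fell as well, as given above, and the part of either in the fall of hch-1 was not tested.

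dpy-31, the protease that trims the carboxy-terminal end of the cuticle collagen SQT-3 (chromosome III, 7202206 to 7207664), had 35.8, 35.8 and 35.7 CPM in EV control against 82.5, 85.4 and 84.5 CPM in nol-56 RNAi libraries. It rose 2.35-fold (log2 fold change 1.23, SE 0.04, edgeR adjusted p = 1.18e-16). The transcript of its substrate, which was added here after its values were seen, went the other way. sqt-3 had 56.2, 73.5 and 108 CPM in EV control against 17.9, 18.4 and 18.3 CPM in nol-56 RNAi libraries. The controls varied widely, but all were above the treated libraries, and sqt-3 fell by 2.13 on the log2 scale (SE 0.15, edgeR adjusted p = 8.27e-12). dpy-17, a collagen that acts with SQT-3, fell by 1.98 (SE 0.12, edgeR adjusted p = 6.66e-13). Whether dpy-31, sqt-3 and dpy-17 changed in the same tissue of these whole worms was not tested. toh-1 rose from 11.8 ± 0.524 to 21.3 ± 0.584 CPM (0.85, edgeR adjusted p = 1.12e-10).

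The genes around the astacins in cuticle biology gave mixed counts. Of 24 tested molting and cuticle shedding genes 10 rose, 13 fell and 1 did not pass, with a median of −0.54 beside 0.16 for all genes. fbn-1, a fibrillin-like matrix protein, went from 88.8 ± 4.68 to 29.2 ± 1.33 CPM (log2 fold change −1.61). noah-2 (−1.66) and noah-1 (−1.38), which belong to the apical matrix, fell, and the kinase gene nekl-2 (1.19) rose. Of 15 tested collagen synthesis and processing genes 8 rose and 4 fell, with a median of 0.39. The cuticle collagen gene rol-6 (1.11, with the limit given above), the dual oxidase gene bli-3 (0.86) and let-268 (0.95), which encodes a lysyl hydroxylase that modifies collagen, rose. Of the other cuticle collagens tested in this list, sqt-3 (−2.13), dpy-17 (−1.98) and bli-1 (−1.23) fell, and sqt-1 (−0.03) did not pass the threshold.

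Other metalloproteases and their inhibitors were nearer to the nas genes. Of 25 tested genes of the matrix metalloprotease, ADAM, ADAMTS and neprilysin types with the inhibitors timp-1 and cri-2, 16 rose and 5 fell, with a median of 0.75. The matrix metalloprotease gene zmp-4 (1.17), the neprilysin gene nep-2 (1.15) and the inhibitor gene timp-1 (from 19.5 ± 1.499 to 47.4 ± 1.41 CPM, 1.27) rose. sup-17, the ADAM10-type protease that cleaves Notch receptors, fell from 388 ± 3.71 to 202 ± 3.90 CPM (−0.94).

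Markers of several somatic tissues had medians near that of the nas genes. The median log2 fold change was 1.11 for intestine, with 14 of 15 higher, 0.90 for body wall muscle, with 10 of 10 higher, and 1.19 for neurons, with 12 of 12 higher. Summed body wall muscle markers stood at 3476 to 3733 CPM in EV control against 6701 to 6724 CPM in nol-56 RNAi, and neuron markers at 542 to 567 and 1081 to 1117 CPM. For somatic gonad, uterus and vulva it was 0.81 (8 of 12 higher), for the excretory system 0.42 (4 of 6) and for coelomocytes, the scavenger cells of the body cavity, 1.54 (3 of 3). Sperm markers had 2 of 5 tested higher and 2 lower, but 6 were lower with no filter on low counts and with DESeq2, and 0 among genes over 1 CPM in at least 3 libraries. The summed excretory markers, at 237 to 245 CPM in EV control against 222 to 232 CPM in nol-56 RNAi, were lower although their median was above 0. The summed level of intestine markers was 30157 to 31308 CPM in EV control against 70959 to 79726 CPM in nol-56 RNAi libraries, a change in the same direction as the family's. Most of this sum was vit-2 and vit-5, at means of 13814 and 14791 CPM in EV control against 34633 and 37208 CPM in nol-56 RNAi. The part of any tissue in the family's rise was not tested.

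**Figure D5:**
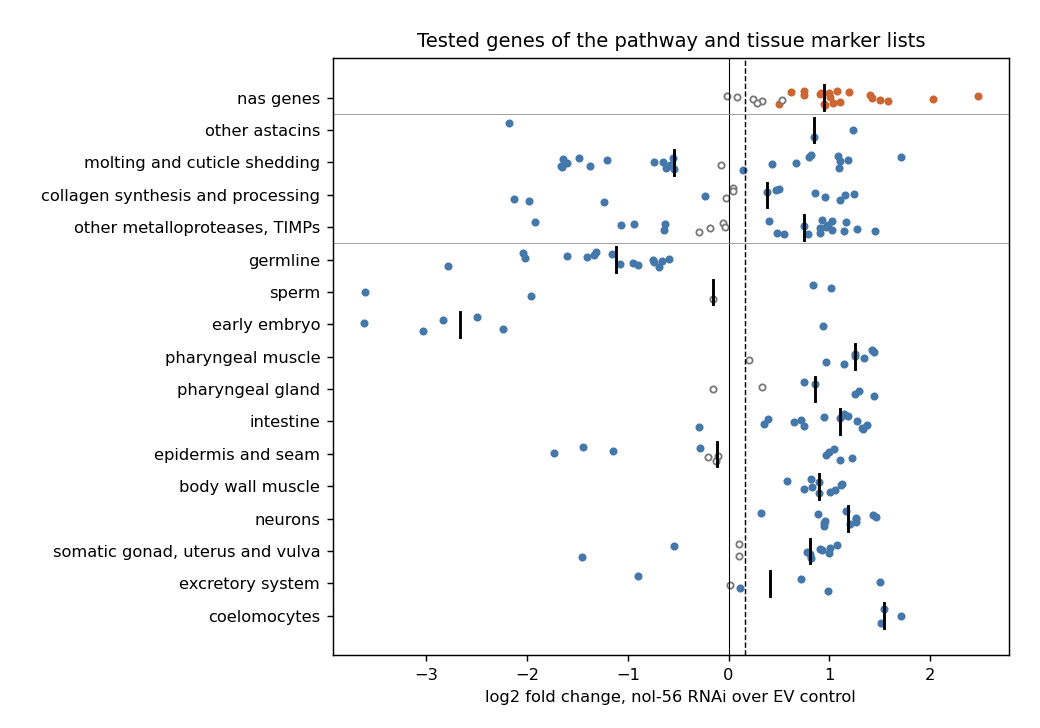
Log2 fold change of nol-56 RNAi over EV control for each tested gene of the nas family, 4 related gene lists and 12 tissue marker lists. Filled points passed the threshold, open points did not, black bars are medians, and the dashed line is the median of all genes tested at 0.16. The nas median of 0.95 is near those of several somatic tissues, away from germline at −1.12 and early embryo at −2.66. Epidermis and seam, at −0.12, and the excretory system, at 0.42, are lower than the other somatic lists.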

How the data were processed

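Per the labels' protocols, polyA-selected mRNA of 6 worm pools was sequenced with a strand-marking kit. The authors deposited whole-number read counts per gene and, for genes with at least 10 counts in all, a normalized signal equal to the count over 1 size factor per library, which was not used. Build WBcel235 and the tools DESeq2 1.36.0, HTSeq 2.01, TopHat2 2.1.1 and cutadapt 2.10 are listed, without role or order, per the submitters' processing notes. Positions and exon lengths came from the Ensembl 115 annotation of that build.

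The whole table was fitted with edgeR 4.0.16 in R 4.3.3 (filterByExpr defaults, TMM factors, quasi-likelihood test on the group, two-sided, Benjamini-Hochberg over all 14677 genes tested). The standard error is the log2 fold change over the root of the F statistic. Between libraries of 1 group, chi-square over degrees of freedom was 2.07 to 6.31, above sampling noise. Counting error limits genes of few counts, and amplified reads are not independent molecules. The tests were tried on simulated counts. DESeq2 1.42.0 and limma 3.58.1 (voom) were alternatives.

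The members and gene lists were chosen with earlier results of these data known. Named were the 8 nas genes with the highest mean CPM, the 5 largest rises and falls past the threshold with a mean of at least 1 CPM, 6 with known roles, up to 4 genes of each related list by smallest p, and others in a clause. sqt-3 was added after its values were seen.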

Additional observations from a re-analysis of the deposited data

How the results depend on the processing

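The count of nas genes called higher was 17 to 23 over 15 alternatives (20 in the report) and the count called lower was 0 in each: 17 with DESeq2 and with genes above 1 CPM in at least 3 libraries, where 19 nas genes were tested, and 23 with upper-quartile factors. Leaving out each library gave 18 to 21. The ratio of the family's summed CPM was 2.104 with RLE factors, 2.75 with upper-quartile factors and 2.47 with library totals, against 2.31. nol-56 was called lower in each alternative. The counts of all genes called higher and lower each stayed within 1.5 times, but lower calls outnumbered higher ones with RLE factors and DESeq2. The replicate numbers did not pair the libraries (correlations of the deviations of same-numbered libraries −0.0355, −0.0113 and 0.000352), and with the replicate number as a block 20 nas genes were higher, the same genes. Calls rest on few reads for nas-4, nas-10, nas-21 and nas-25, each with at most 34 counts per library.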
